A study of Mus musculus with 8 samples.

Results

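Genomic imprinting is the silencing of 1 parental copy of a gene according to the parent it came from, and many imprinted genes act on growth. The 10 genes described here are imprinted in the mouse and lie outside the Igf2-H19 and Dlk1-Meg3 loci, namely Mest, Plagl1, Zim1, Peg3, Grb10, Ndn, Peg10, Sgce, Nnat and Impact. They were chosen by their measured levels in these libraries, so their values are given as a description, without p-values. They are 10 of 24980 gene symbols in the count table, and all 10 were among the 17582 genes that passed the filter on low counts. Zim1 and Grb10 are mainly expressed from the maternal copy in most tissues and the other 8 from the paternal copy. The counts do not separate the copies.

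In many imprinted genes the parental copies are told apart by a mark of DNA methylation that is laid down in the germ line and kept through cell division. Imprinted genes are grouped in domains that share such a mark, and several are down-regulated together in muscle and other organs after birth. In muscle progenitors the paternally expressed zinc finger gene Peg3 is a known marker of a subset of interstitial and satellite cells.

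The teratoma progenitors were sorted as cells with α7-integrin and VCAM-1 and without CD31 and CD45. The RNA-seq libraries came from mouse skeletal myogenic cells in 4 groups of 2 biological replicates. TF cells were freshly isolated myogenic progenitors from teratomas, tumors that embryonic stem cells (ESCs) form after injection into the muscle of immunodeficient, dystrophin-deficient NSG-mdx4Cv mice, and TE cells were such progenitors expanded to passage 8. SF cells were freshly isolated satellite cells, which repair adult muscle, and SE cells were satellite cells expanded to passage 8 in the same medium on gelatin. The satellite cells came from adult mice, whose strain is not stated in the sources used here. The study formed its first teratomas from 1 ESC line, EGFP-labelled E14, and the line behind these libraries is not named separately. Expanded cells passed through culture selection, so TE and SE are not TF and SF cells followed one by one. Library totals ran from 11930881 to 21146554 counts, the ribosomal precursor Rn45s took 7.99% to 21.3% of a library, and the replicates of every group differed by more than counting noise. Expression levels are given as normalized counts (counts divided by a size factor for each library), on which the limit of detection of 3 counts is between 2.15 and 3.89. Changes are log2 fold changes ± SE from 1 edgeR fit over the 4 groups, and a gene is called when its adjusted p is below 0.05 and its level differs by more than 25% between the groups.

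The promoters of the 3 members with the largest log2 difference between TE and SE and of Peg3, the neighbour of Zim1, which was not called there, are shown from the RefSeq promoter table (GRCm38.p6), 5′ to 3′ on the gene's strand, from 250 bases before to 50 bases after a transcript start. Capitals mark TGCCGC or its reverse complement GCGGCA, the core of the sequence bound by ZFP57, a protein that keeps imprints methylated. The windows are chr6:30737800-30738099 on the plus strand for Mest, chr10:13090582-13090881 on the plus strand for Plagl1, chr7:6696383-6696682 on the minus strand for Zim1 and chr7:6730370-6730669 on the minus strand for Peg3.
Mest: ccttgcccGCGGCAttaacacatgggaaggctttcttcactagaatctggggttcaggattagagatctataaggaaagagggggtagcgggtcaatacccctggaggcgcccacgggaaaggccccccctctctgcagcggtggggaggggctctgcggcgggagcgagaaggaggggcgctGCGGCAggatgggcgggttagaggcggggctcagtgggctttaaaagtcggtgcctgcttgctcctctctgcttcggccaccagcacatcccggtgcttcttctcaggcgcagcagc
Plagl1: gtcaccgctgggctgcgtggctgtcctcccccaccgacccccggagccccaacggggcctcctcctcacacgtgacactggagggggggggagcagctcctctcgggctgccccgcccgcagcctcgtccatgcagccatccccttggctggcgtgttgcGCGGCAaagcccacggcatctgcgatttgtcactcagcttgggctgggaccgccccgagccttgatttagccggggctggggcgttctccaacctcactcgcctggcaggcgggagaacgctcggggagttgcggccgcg
Zim1: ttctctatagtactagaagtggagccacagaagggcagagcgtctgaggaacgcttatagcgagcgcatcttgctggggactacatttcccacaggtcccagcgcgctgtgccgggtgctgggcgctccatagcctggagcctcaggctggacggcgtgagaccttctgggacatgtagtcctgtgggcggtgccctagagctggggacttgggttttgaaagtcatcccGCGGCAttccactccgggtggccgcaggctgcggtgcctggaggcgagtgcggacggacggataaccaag
Peg3: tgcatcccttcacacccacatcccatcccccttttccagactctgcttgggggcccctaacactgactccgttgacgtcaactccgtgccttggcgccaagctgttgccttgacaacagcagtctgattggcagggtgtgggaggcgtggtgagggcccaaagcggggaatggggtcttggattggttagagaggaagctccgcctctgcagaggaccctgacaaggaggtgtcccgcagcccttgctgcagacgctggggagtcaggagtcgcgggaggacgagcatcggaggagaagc
The hexamer occurs 2 times in the Mest window and 1 time in each of the Plagl1 and Zim1 windows, and not in that of Peg3. Mest has 2 more windows in the table, of which chr6:30737803-30738102 nearly repeats the window shown and chr6:30733256-30733555 holds 0 hexamers and 8 CG dinucleotides. At least 1 copy was found in 11.6% of the 32851 promoters of the table and at least 2 in 1.53%. The windows hold 17, 26, 20 and 13 CG dinucleotides for Mest, Plagl1, Zim1 and Peg3, against a median of 7 over all promoters. At least 15 were found in 34.6% of all promoters and at least 26 in 16.9%. Impact was left out of the search over the members. Otherwise the table has 10 windows of 7 members, and 6 windows of 5 members hold the hexamer (Mest, Plagl1, Zim1, Grb10 and Nnat). Methylation was not measured, and a match is no evidence that the protein binds.

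Mest (paternally expressed, an enzyme of the alpha/beta hydrolase fold family) lies on chromosome 6 at 30723547 to 30748465 (GRCm38, GENCODE M21). Its normalized counts were 1574 and 1719 in TF, 30.7 and 79.4 in TE, 506 and 826 in SF, and 18373 and 12626 in SE. The groups did not overlap, with the 2 SE libraries highest and the 2 TE libraries lowest of the 8. Before culture Mest was called higher in TF than in SF (log2 1.46 ± 0.38), a 2.75-fold difference whose call was lost without TF replicate 2 (log2 1.38) or SF replicate 1 (log2 1.11). From there it fell 28.8-fold in the teratoma-derived cells (log2 -4.85 ± 0.45) and rose 26.4-fold in the satellite cells (log2 4.72 ± 0.43). After culture it was 277-fold lower in TE than in SE (log2 -8.11 ± 0.51), and the fall in TE and the rise in SE were of similar size on the log2 scale. Without TE replicate 2 the values were log2 -8.94 for TE versus SE and -5.66 for TE versus TF.

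Plagl1 (paternally expressed) encodes a zinc finger transcription factor that regulates a network of imprinted genes and can arrest the cell cycle. It lies on chromosome 10 at 13060504 to 13131694, and its normalized counts were 2384 and 1665 in TF, 24 and 21.6 in TE, 1727 and 1419 in SF, and 6996 and 3622 in SE. The fresh groups overlapped and did not differ by the call (TF versus SF log2 0.53 ± 0.30). Culture took Plagl1 down 85.1-fold in the teratoma-derived cells (log2 -6.41 ± 0.40) and up 3.85-fold in the satellite cells (log2 1.95 ± 0.31). Of the 228-fold difference between TE and SE (log2 -7.83 ± 0.42), most on the log2 scale was the fall in TE.

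Zim1 (maternally expressed, a zinc finger gene) lies in the Peg3 domain of chromosome 7 at 6671269 to 6696450. Its normalized counts were 910 and 988 in TF, 32.9 and 37.8 in TE, 1003 and 1153 in SF, and 1935 and 2253 in SE. The TE libraries were lowest and the SE libraries highest, and the fresh groups lay close together (TF versus SF log2 -0.03 ± 0.19). Zim1 fell 25.8-fold in the teratoma-derived cells (log2 -4.69 ± 0.24) and rose 2.22-fold in the satellite cells (log2 1.15 ± 0.20), which left TE 58.1-fold below SE (log2 -5.86 ± 0.25).

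Nnat (paternally expressed), which encodes the small membrane proteolipid neuronatin, was at 332 normalized counts or below in every library. It lies on chromosome 2 at 157560078 to 157562522, and its normalized counts were 260 and 108 in TF, 22.5 and 14.6 in TE, 58.6 and 84.4 in SF, and 332 and 106 in SE. The TE libraries were the lowest of the 8, and the SE and TF libraries overlapped. Nnat fell 9.48-fold over culture in the teratoma-derived cells (log2 -3.24 ± 0.72), while its change in the satellite cells was not called (log2 1.80 ± 0.68), and TE was 11.5-fold below SE (log2 -3.53 ± 0.73). The call between TE and SE was lost without TE replicate 1 (log2 -3.86), without TE replicate 2 (log2 -3.25) and without SE replicate 1 (log2 -2.49), and that between TE and TF without TE replicate 2 (log2 -2.94). The TE versus TF value was log2 -2.46 without TF replicate 1. In the satellite cells the rise was called without a filter on low counts and without TF replicate 1, TF replicate 2 or SE replicate 2, and the value ran from log2 0.78 without SE replicate 1 to 2.40 without SE replicate 2.

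**Figure D1:**
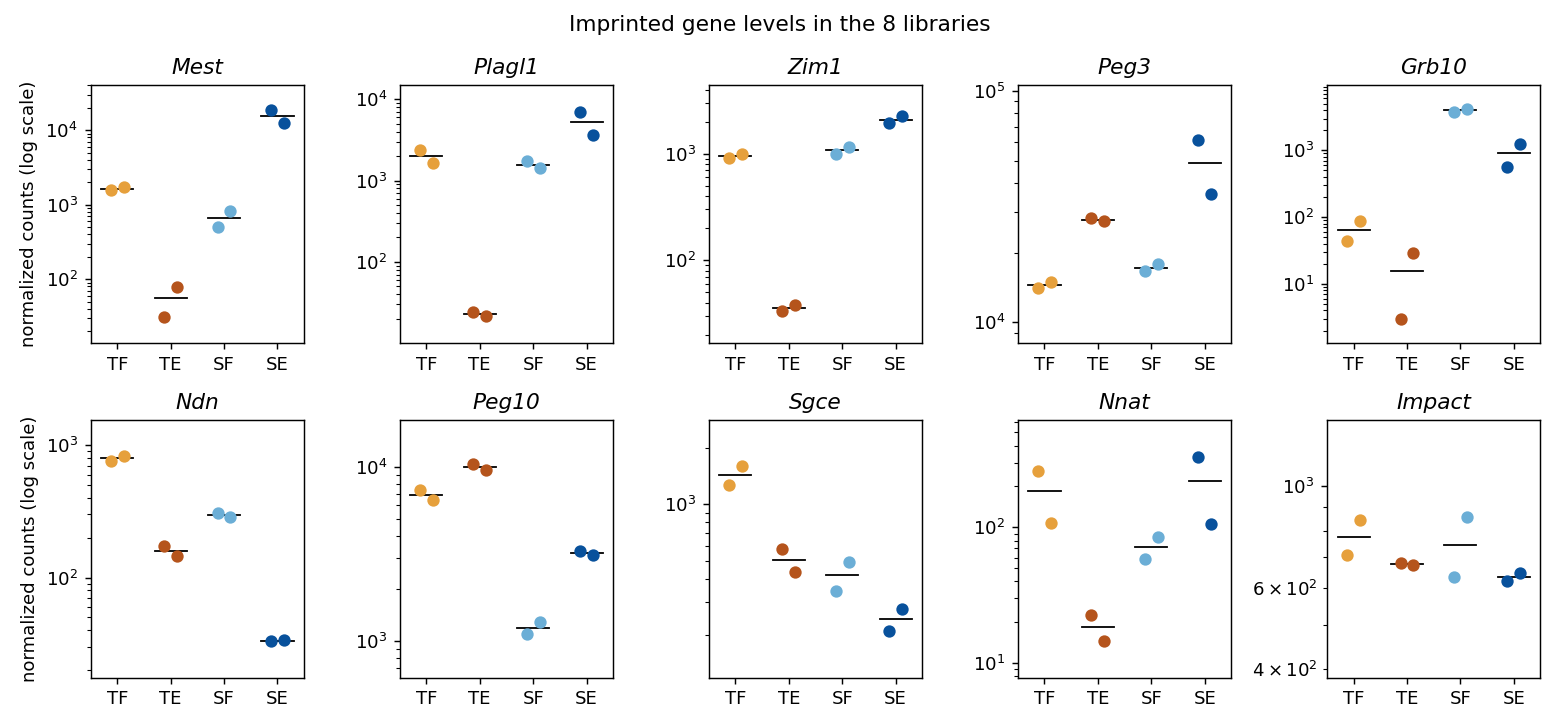
Normalized counts (log scale, own range for each panel) of the 10 genes in the 2 libraries of each group, with the group mean as a line. Mest, Plagl1, Zim1 and Nnat are lowest in TE, with Mest at 30.7 and 79.4 there against 18373 and 12626 in SE, whereas Grb10 is already low in TF and Impact lies between 624 and 858 in all 8 libraries.

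In the interaction, the change over culture in TE minus that in SE, these 4 genes had values of -9.57 ± 0.62 for Mest, -8.36 ± 0.50 for Plagl1, -5.84 ± 0.30 for Zim1 and -5.04 ± 0.99 for Nnat on the log2 scale, and all 4 were called. Since the difference between TE and SE is the sum of the starting difference and the interaction, the starting difference worked against the final one in Mest and was close to 0 in Zim1.

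Grb10 (maternally expressed in most tissues) encodes an adaptor that inhibits signaling from the insulin and IGF1 receptors. It lies on chromosome 11 at 11930508 to 12038683, and its normalized counts were 44.1 and 86.1 in TF, 3 and 28.5 in TE, 3800 and 4163 in SF, and 563 and 1253 in SE. The 4 satellite cell libraries were all above the 4 teratoma-derived ones. Its gap between origins was as large before culture (TF versus SF log2 -5.77 ± 0.69, 54.5-fold) as after it (TE versus SE log2 -5.83 ± 0.72, 56.7-fold). It fell 3.84-fold in the satellite cells (log2 -1.94 ± 0.56, not called by DESeq2 at log2 -2.13 or without SF replicate 1 at log2 -2.03), and the 3.99-fold lower value in the teratoma-derived cells was not called (log2 -2.00 ± 0.73). Without a filter on low counts, with the replicate number as a block, and without TF replicate 1, TE replicate 2 or either SE replicate, that lower value was called. Its size ran from log2 -4.31 without TE replicate 2 to -1.11 without TE replicate 1, and the interaction, at -0.06 ± 0.81, from -2.40 to 0.81 in the same fits. The fall in the satellite cells was log2 -2.63 without SE replicate 2. One TE library was at 3 normalized counts, near the limit of detection, and the TE versus SE value ran from log2 -8.16 without TE replicate 2 to -4.95 without TE replicate 1.

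Peg3 (paternally expressed) encodes a zinc finger protein that has been linked to cell death and to muscle stem cell function. It lies on chromosome 7 at 6703892 to 6730431, 7441 bases from Zim1. Its normalized counts were 14049 and 15001 in TF, 28154 and 27467 in TE, 16596 and 17926 in SF, and 61581 and 35902 in SE. Every expanded library was above every fresh one. Peg3 rose over culture in both origins, by log2 0.99 ± 0.27 in the teratoma-derived cells and 1.69 ± 0.27 in the satellite cells, and neither the difference between TE and SE (log2 -0.78 ± 0.26) nor the interaction (log2 -0.69 ± 0.37) was called. The call in the teratoma-derived cells was lost in each fit without 1 of the TF or TE libraries, at log2 0.97 to 1.08, and that between TE and SE was gained with DESeq2, without a filter on low counts and without SE replicate 2. Zim1 and Peg3, neighbours in 1 domain, therefore moved in opposite directions over culture in the teratoma-derived cells.

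Ndn (paternally expressed) encodes necdin, a growth suppressor of the MAGE family that is expressed in muscle progenitors. It lies on chromosome 7 at 62346569 to 62350262, and its normalized counts were 765 and 829 in TF, 173 and 144 in TE, 308 and 287 in SF, and 32.9 and 33.5 in SE. The 4 groups were separate from each other, and the replicates were close. Ndn fell over culture in both origins, by 4.83-fold (log2 -2.27 ± 0.28) in the teratoma-derived and 7.83-fold (log2 -2.97 ± 0.30) in the satellite cells. TE stayed 4.84-fold above SE (log2 2.28 ± 0.30), with a starting difference of log2 1.58 ± 0.28 and an uncalled interaction of log2 0.70 ± 0.39.

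Peg10 and Sgce lie head to head on chromosome 6, with 98 bases between the gene ends, Peg10 at 4747306 to 4760517 and Sgce at 4674350 to 4747207. Peg10 (paternally expressed) is derived from a retrotransposon, and Sgce (paternally expressed) encodes epsilon-sarcoglycan, a member of a membrane protein family. The normalized counts of Peg10 were 7315 and 6413 in TF, 10389 and 9627 in TE, 1110 and 1287 in SF, and 3284 and 3136 in SE. Those of Sgce were 1266 and 1592 in TF, 576 and 433 in TE, 344 and 493 in SF, and 211 and 275 in SE.
In Peg10 all 4 teratoma-derived libraries were above all 4 satellite cell libraries, whereas in Sgce the TE and SF libraries overlapped. Peg10 was higher in TF than in SF (log2 2.67 ± 0.19) and in TE than in SE (log2 1.66 ± 0.19), and rose over culture by log2 0.60 ± 0.18 and 1.61 ± 0.19 in the teratoma-derived and the satellite cells, with a called interaction of log2 -1.01 ± 0.26. Sgce was higher in TF than in SF (log2 1.93 ± 0.29) and in TE than in SE (log2 1.08 ± 0.28), and fell over culture in the teratoma-derived cells (log2 -1.45 ± 0.28), while log2 -0.60 ± 0.28 in the satellite cells was not called, except with median-ratio factors or DESeq2 (log2 -0.78 in both). The rise of Peg10 in the teratoma-derived cells was not called in any fit without 1 of the TF or TE libraries (log2 0.54 to 0.72), and its interaction was not called in those fits or without SF replicate 1 (log2 -1.09 to -0.86). The TE versus SE call of Sgce was lost in the fits without a TF library, a TE library or SE replicate 1 (log2 0.87 to 1.27), and its fall was not called without TE replicate 2 (log2 -1.23). That TE versus SE call was also lost with only the compared groups, with glmTreat and with Rn45s left out (log2 1.06 to 1.08). Chromosome 6 as a whole was higher in teratoma-derived cells: over its 633 genes that averaged 50 normalized counts or more, the median log2 change was 0.76 in TF versus SF, against 0.24 over all 12582 such genes, and 0.53 in TE versus SE, against 0.000268. Against that median, Peg10 was 1.13 and Sgce 0.54 higher in TE than in SE on the log2 scale, and Mest was at -8.65. In TF versus SF the values against the chromosome median were log2 1.92 for Peg10, 1.17 for Sgce and 0.70 for Mest. The part of chromosome 6 in these values was not tested.

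Impact (paternally expressed), which encodes an inhibitor of the kinase GCN2 in the response to amino acid shortage, lies on chromosome 18. Its normalized counts were 709 and 843 in TF, 679 and 675 in TE, 634 and 858 in SF, and 624 and 648 in SE. Both TF libraries were above both TE libraries, and these above both SE libraries, but no comparison was called (log2 values between -0.14 ± 0.23 and 0.21 ± 0.23).

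**Figure D2:**
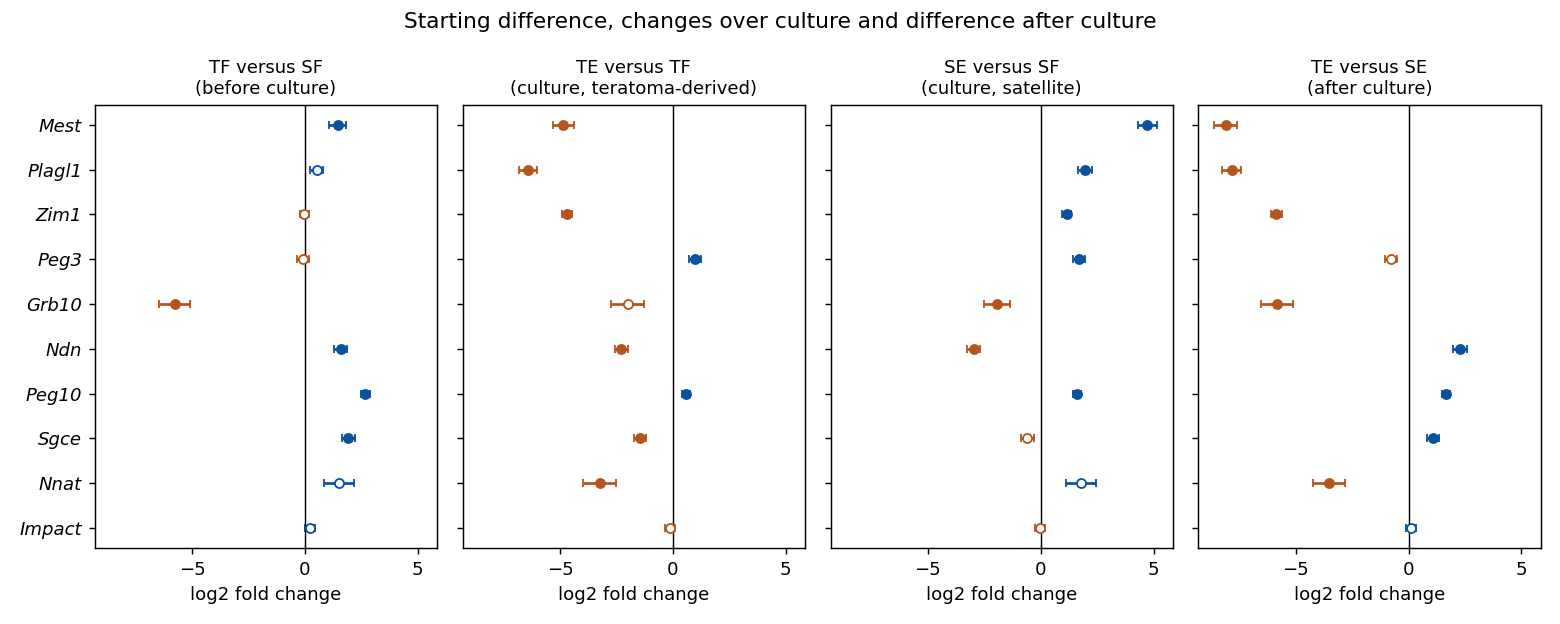
Log2 fold changes (points, with SE as bars) of the 10 genes before culture (TF versus SF), over culture in each origin (TE versus TF, SE versus SF) and after culture (TE versus SE), with filled points called and open points not called. Mest moves to -4.85 in the teratoma-derived cells and to 4.72 in the satellite cells, whereas Grb10 shows its full difference between origins, -5.77, before culture.

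Counted together, 3 members were higher and 5 lower in TE than in SE, where 3.15% of all tested genes were called higher and 4.07% lower. In TF versus SF, 4 were higher and 1 lower, with 15.1% and 9.13% of all genes called. Over culture, 2 members rose and 6 fell in the teratoma-derived cells (9.86% and 16.2% of all genes), and 5 rose and 2 fell in the satellite cells (20.9% and 19.8%). In the interaction 0 members were positive and 5 negative (4.7% and 9.62%), namely Mest, Plagl1, Zim1, Nnat and Peg10. The members were picked on these contrasts, which also share libraries, so nothing is read from the counts. Their median log2 change was -2.16 in TE versus SE and 0.99 in TF versus SF, against -0.00339 and 0.08 over all tested genes.

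Per kilobase of exon, Peg3 was the most abundant member in TE, at 2113 and 2061 normalized counts per kilobase, followed by Peg10 at 1558 and 1444. In TF the levels of Peg3 (1054 and 1126) and Peg10 (1097 and 962) overlapped, and in SF Peg3 was highest at 1246 and 1345. In SE, Mest at 4657 and 3201 reached the level of Peg3 at 4622 and 2695, and these neighbours in the order did not differ beyond their spread. The lowest members in TE were Grb10 (0.33 and 3.14), Plagl1 (3.06 and 2.76) and Zim1 (4.07 and 4.67), of which Grb10 and Plagl1 overlap.

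Over the 8 libraries, Plagl1 and Zim1 had the most similar profiles among Mest, Plagl1 and Zim1, with a root mean square difference of 0.816 on the log2 scale after each gene was centred on its own mean, against 1.23 for Mest and Plagl1 and 1.35 for Mest and Zim1. Among the 12680 tested genes that averaged 50 normalized counts or more, those most like Mest were Hoxa11 (0.811), Adora2b (0.953) and Hoxa9 (1.01), and those most like Plagl1 were Zfp629 (0.609), Hgf (0.674) and Prkcb (0.688). Hoxa11 and Hoxa9 are patterning genes of the limb, Adora2b an adenosine receptor, Hgf the growth factor that activates satellite cells and Prkcb a protein kinase. These are descriptions over 8 libraries of 4 groups.

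Levels of other cell types also moved over culture. The sum of 5 fibro-adipogenic markers (Pdgfra, Ly6a, Dpt, Pi16 and Col1a1) was 219746 and 224763 normalized counts in TF, 22876 and 40638 in SF, 288 and 126 in TE, and 3156 and 7678 in SE. Most of each sum was Col1a1, at 209379 and 213163 in TF, 17607 and 32545 in SF, 262 and 121 in TE, and 3052 and 7582 in SE. In TF versus SF 3 of the 5 were called higher and 0 lower, while Dpt and Ly6a overlapped between these groups. In TE versus SE 0 were called higher and 2 lower. All 5 fell in TE versus TF and 4 in SE versus SF, and Dpt and Pi16 were between 0 and 4.29 in the 4 expanded libraries. The 5 endothelial markers summed to 1034 to 5825 in fresh and 6.94 to 33.6 in expanded libraries, and the 5 haematopoietic ones to 384 to 5024 and 11.2 to 97.8, with Ptprc (CD45) at 0 in all 4 expanded libraries. Among the markers that the sort excluded, Ptprc was at 772 and 98.4 in TF and Pecam1 (CD31) at 849 and 84.9, so TF replicate 1 held more of both than TF replicate 2. The 5 pericyte and smooth muscle markers summed to 9089 to 14375 in fresh and 941 to 1945 in expanded libraries, and the 4 Schwann markers to 181 to 1120 and 33.9 to 66.9. The 4 pluripotent markers summed to 0 to 173 and 0.771 to 14.6, and the 5 neural markers to 159 to 359 and 278 to 1206. In TE the neural sum was almost all Stmn2, at 1197 and 994, with Sox1 and Neurod1 at 0 in both libraries, and in TE versus TF 1 of the 5 was called higher and 2 lower. The myogenic markers (Pax7, Myf5, Myod1, Myog, Itga7, Vcam1, Cdh15 and Des) summed to 21440 to 43387 in fresh and 44665 to 63575 in expanded libraries. In TE versus TF 5 of the 8 were called higher and 3 lower, and in SE versus SF 3 higher and 3 lower. Pax7 went from 3067 and 4914 in TF to 1503 and 1241 in TE, and from 4046 and 4581 in SF to 1743 and 1174 in SE. In such bulk RNA, fewer cells of a type and less RNA per cell cannot be told apart, and the part of these markers in the falls of Mest, Plagl1, Zim1, Ndn and Nnat was not tested.

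Of 21 listed imprinted neighbours of the members 19 were tested, and 2 were called higher and 1 lower in TE than in SE (3.15% and 4.07% of all genes). In TE versus TF 2 rose and 5 fell (9.86% and 16.2%), in SE versus SF 7 rose and 4 fell (20.9% and 19.8%), and in the interaction 0 were positive and 3 negative (4.7% and 9.62%). Copg2, a coatomer subunit whose 3′ end overlaps Mest by 912 bases on the other strand, had 1482 and 1440 normalized counts in TE and 1216 and 1346 in SE, a difference that was not called (log2 0.21, edgeR adjusted p = 0.786). In SE versus SF, Copg2 rose by log2 2.06 ± 0.31 (edgeR adjusted p = 0.000728), and in TE versus TF it was at log2 0.65 ± 0.30 (edgeR adjusted p = 0.142). Before culture Copg2 was higher in TF, at 1037 and 903, than in SF, at 227 and 469. This starting difference was log2 1.63 ± 0.31 (edgeR adjusted p = 0.00544), and the interaction of Copg2 was not called (log2 -1.42 ± 0.43, edgeR adjusted p = 0.0553). Usp29, a ubiquitin protease 146 bases from Peg3, rose in both origins like Peg3 (log2 1.86, edgeR adjusted p = 0.00218, and log2 1.95, edgeR adjusted p = 0.000973).

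Blcap, an apoptosis-related gene within which Nnat lies on the opposite strand, had 208 and 129 normalized counts in TE and 473 and 377 in SE, without a call (log2 -1.31 ± 0.38, edgeR adjusted p = 0.0747), and was at log2 -0.01 in TE versus TF (edgeR adjusted p = 0.996), where Nnat fell. Whether the counting used strand is not given in the sources used here, so reads of Nnat and Blcap, or of Mest and Copg2 where they overlap, may not be told apart. Klf14, a transcription factor gene near Mest, was higher in TE, at 106 and 81.7, than in SE, at 20 and 3.43 (log2 2.99 ± 0.72, edgeR adjusted p = 0.0366). It was already higher before culture, at 331 and 429 in TF against 14 and 22.8 in SF. That starting difference was log2 4.51 ± 0.76 (edgeR adjusted p = 0.00298), and the interaction of Klf14 was not called (log2 -1.52 ± 0.98). Phactr2, the neighbour of Plagl1, fell in both origins and was higher in TE than in SE (log2 0.76 ± 0.18, edgeR adjusted p = 0.0353). Its difference was of the same size before culture (TF versus SF log2 0.77 ± 0.18, edgeR adjusted p = 0.0144), and its interaction was not called. Tfpi2, a protease inhibitor in the Peg10 domain, had 244 and 229 normalized counts in TF, 434 and 242 in SF, 5.72 and 3.43 in SE and 0 in both TE libraries, so TF was at least 104-fold above TE. Tfpi2 was called lower in TE than in SE (edgeR adjusted p = 0.0314), although the SE libraries were themselves near the limit of detection.
Ppp1r9a in the same domain, a scaffold of protein phosphatase 1, had a called interaction (log2 -1.80 ± 0.40, edgeR adjusted p = 0.0168), as did Peg12 near Ndn (log2 -2.57 ± 0.68, edgeR adjusted p = 0.0333). Before culture both were called higher in TF than in SF, Ppp1r9a by log2 2.59 ± 0.30 and Peg12 by 2.38 ± 0.50. Ppp1r9a fell in TE versus TF (log2 -1.01 ± 0.28), and its change in SE versus SF was not called (log2 0.79 ± 0.29). Peg12 rose in SE versus SF (log2 2.25 ± 0.50), and its change in TE versus TF was not called (log2 -0.31 ± 0.47). Under the alternative settings, the TE versus SE call held in 7 of 15 fits for Phactr2, 10 of 15 for Klf14 and 11 of 14 for Tfpi2.

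**Figure D3:**
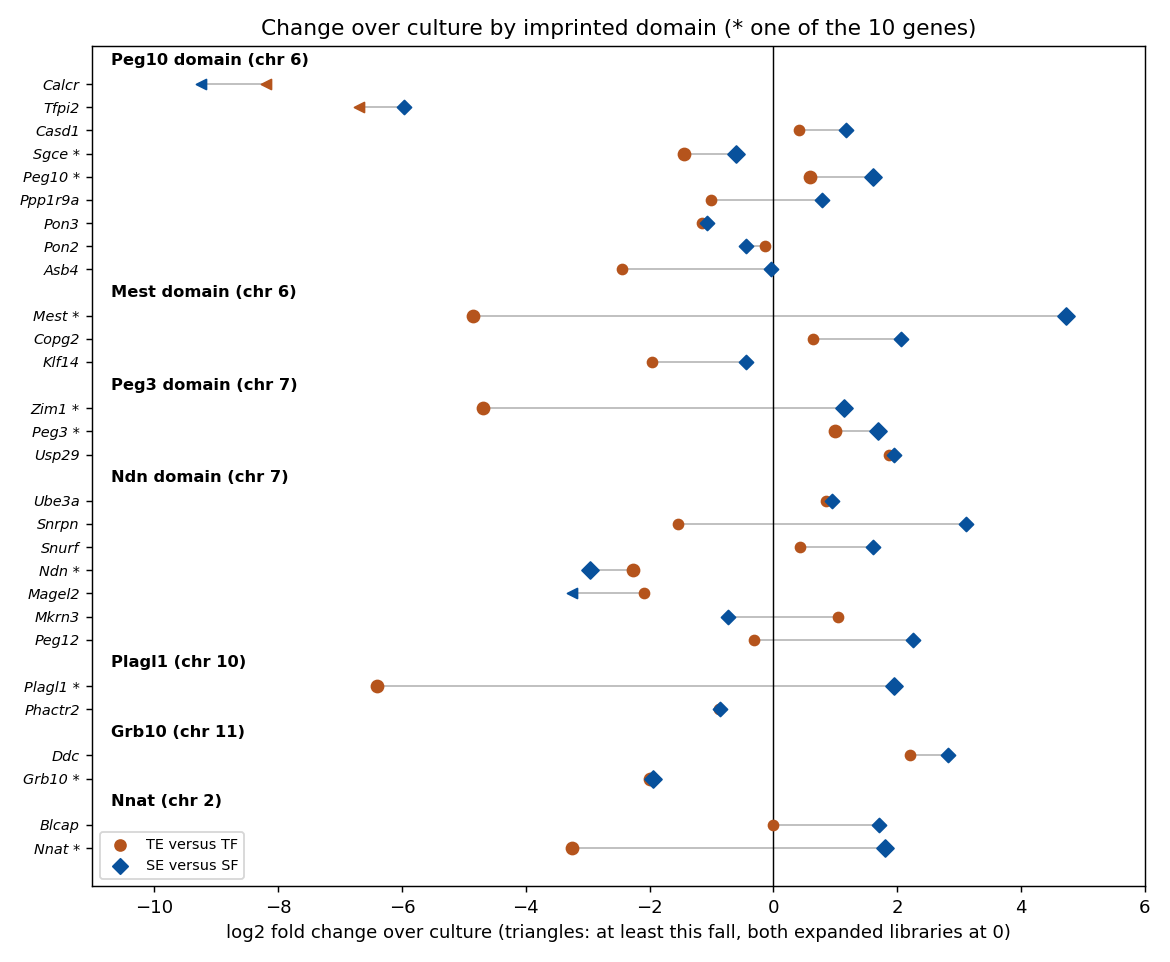
Log2 fold changes over culture of the members (marked *) and their imprinted neighbours, grouped by domain, in the teratoma-derived (TE versus TF, circles) and the satellite cells (SE versus SF, diamonds), with triangles for lower bounds of the fall where both expanded libraries were at 0. The widest gaps are those of Mest (-4.85 and 4.72) and Plagl1 (-6.41 and 1.95), whereas Peg3 and Usp29 rise in both.

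Of 31 imprinted genes of other domains 25 were tested. In TE versus SE 2 were called higher and 1 lower (3.15% and 4.07% of all genes), and in TE versus TF 0 rose and 7 fell (9.86% and 16.2%). In SE versus SF 2 rose and 12 fell (20.9% and 19.8%), and in the interaction 3 were positive and 1 negative (4.7% and 9.62%). Cdkn1c, a maternally expressed inhibitor of cyclin-dependent kinases, was higher in TE, at 15385 and 14319 normalized counts, than in SE, at 439 and 2223 (log2 3.5 ± 0.61, edgeR adjusted p = 0.00844), and was already higher in TF than in SF (log2 3.19 ± 0.60, edgeR adjusted p = 0.00524). Zdbf2, a paternally expressed gene linked to early growth, had 2128 and 2321 normalized counts in TF, 1251 and 962 in TE, 2104 and 2630 in SF and 148 and 409 in SE, and was higher in TE than in SE (log2 2.01 ± 0.40, edgeR adjusted p = 0.0156). Peg13, a paternally expressed non-coding RNA, was at 6.74 and 0 in TE against 175 and 100.4 in SE (log2 -5.27 ± 1.02, edgeR adjusted p = 0.0142), and like Grb10 it was low before culture, at 59.7 and 11.1 in TF against 697 and 812 in SF.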

How the data were processed

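RNA was measured in 8 libraries made with a kit that keeps strand from total RNA of small inputs. The authors deposited expected counts per gene symbol, not normalized, and the submitters' processing notes name CASAVA, kallisto 0.44.0 and GRCm38 (mm10). The annotation and strand setting are not given in the sources used here. The deposited counts were rounded. Genes were filtered with filterByExpr, scaled by TMM, and compared by the quasi-likelihood test of edgeR (version 4.0.16, R 4.3.3) in 1 fit of 4 groups without a replicate term. P-values were adjusted over the 17582 genes tested (Benjamini-Hochberg). Displayed levels used DESeq2's (version 1.42.0) median-ratio size factors. The edgeR fit was checked on simulated counts. Totals were 11930881 to 21146554 counts, and the floor of 3 counts covers counting error only, while the SEs of the fit include the spread between replicates. The members and lists were chosen with earlier results of these data known. Named beside them were listed imprinted genes called in TE versus SE or in the interaction, neighbours described with a member, and the 3 genes most like Mest and Plagl1. GENCODE M21 placed 98.2% of the symbols. Alternatives were median-ratio factors, no filter, DESeq2, only the compared groups, a replicate block, glmTreat, Rn45s left out and each library left out. Same-numbered replicates did not deviate together (correlations -0.026 to 0.075).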

Additional observations from a re-analysis of the deposited data

Results flagged for a closer look

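Among the 10 members, 19 neighbours and 25 other imprinted genes tested, 12 had a called difference between the origins in the change over culture. This was by the interaction term of the edgeR fit, in which 4.7% of all tested genes were called positive and 9.62% negative. Of the neighbours 0 were positive and 3 negative, and of the other imprinted genes 3 and 1, so nothing is read from these counts. On the log2 scale the interaction was -9.57 for Mest, -8.36 for Plagl1, -5.84 for Zim1, -5.04 for Nnat and -1.01 for Peg10, all of which are members chosen on their levels in these libraries. Among the listed genes that are not members it was 2.27 for Airn, an antisense RNA of the Igf2r domain that fell in the satellite cells from 1171 and 1314 to 102 and 215 normalized counts and stood at 88.3 and 87.4 in TF and 68.9 and 50.1 in TE. It was 1.95 for Zdbf2 and 2.65 for Mcts2, a translation factor retrogene. It was -0.94 for Cd81, a membrane tetraspanin, -1.80 for Ppp1r9a, -2.57 for Peg12 and -5.01 for Tfpi2, whose TE libraries were both at 0, so that the fitted size depends on the prior count. The edgeR adjusted p was 0.0215 for Airn, 0.0425 for Zdbf2, 0.0359 for Mcts2, 0.0371 for Cd81 and 0.0378 for Tfpi2. Of 14 alternative fits, the call held in 13 for Ppp1r9a, 12 for Airn, 9 for Peg12, 8 for Zdbf2 and Tfpi2, 6 for Mcts2 and 5 for Cd81.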

How the results depend on the processing

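Of 740 results on a member under an alternative setting, 670 kept both their status (called or not called) and their direction. These include results called in neither fit. In the main fit 8 of the 10 members were called in TE versus SE and 5 in TF versus SF. Over culture 8 were called in TE versus TF and 7 in SE versus SF, and 5 were called in the interaction. Another 20 results stayed uncalled with another sign (Impact, Zim1, Peg3 and the Grb10 interaction, the last at up to log2 0.81). A call was gained in 16 and lost in 34, and only results called in the main fit could lose one. Another 20 values, relative to the chromosome median, carry no call. With each library left out, the number of members called was 6 to 9 in TE versus SE, 4 to 5 in TF versus SF, 5 to 9 in TE versus TF (5 without TE replicate 2), 6 to 8 in SE versus SF and 4 to 6 in the interaction, and that of the other listed imprinted genes 3 to 9, 9 to 20, 7 to 19, 21 to 25 and 0 to 9. Listed genes called in TE versus SE were 3 and in the interaction 0 without TE replicate 1, against 6 and 7 with all libraries, and in TF versus SF 9 without TF replicate 2 and 11 without SF replicate 1, against 18. Without a filter on low counts the listed genes called were 14 in TE versus SE, 23 in TE versus TF (main 14) and 11 in the interaction. DESeq2 called 12 in TE versus SE, and a fit of only the compared groups 22 in TE versus TF. The cause was not tested. Calls of Sgce in TE versus SE, of Peg10 in TE versus TF and in the interaction, of Mest in TF versus SF and of Grb10 in SE versus SF were each lost under at least 1 setting. Median-ratio factors moved the median of all genes by log2 -0.16 in TF versus SF, -0.19 in SE versus SF and 0.14 in the interaction.

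The replicate numbers share only a number, and a fit with them as a block called 1205 genes in TE versus SE (1268 without), 3979 in TF versus SF (4261), 4321 in TE versus TF (4581), 6757 in SE versus SF (7152) and 2327 in the interaction (2517). With 2 libraries a group, the depth and spread limit what can be called. The p-values set a difference between groups against the spread between replicate libraries, which the fit shares over all groups.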

Other observations

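Several genes from the lists of imprinted genes lost nearly all counts in culture in both origins. Whether they are imprinted in these cells was not tested. They were picked here after their values had been seen. Calcr, the calcitonin receptor gene in the Peg10 domain and a marker of quiescent satellite cells, had 534 and 801 normalized counts in TF, 1431 and 1428 in SF and 0 in all 4 expanded libraries, so that TF was at least 293-fold above TE and SF at least 606-fold above SE. Slc38a4, an amino acid transporter gene, went from 697 and 795 in TF to 8.24 and 0 in TE, and from 115 and 161 in SF to 0 in both SE libraries. Dcn, which encodes the matrix proteoglycan decorin and is abundant in fibroblasts, went from 13515 and 12229 in TF to 57.7 and 18.5 in TE and from 9758 and 16120 in SF to 0 and 14.6 in SE. Gnas, the stimulatory G protein alpha subunit, fell in both origins by less (log2 -1.23 and -0.93, edgeR adjusted p = 0.00265 and 0.00683).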
